A study of Mus musculus with 6 samples.

Results

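The 1001 genomic regions described here were called in the 96 h peak list of ESRRB and overlapped no region of the lists from 2iL or 48 h. They were chosen by the calls themselves: the regions of the 3 lists were pooled, those that overlapped by at least 1 bp were merged, and a merged region was kept when all of its intervals came from 96 h. That left 1001 of 18634 merged regions (5.37%), and each of the 1001 was a single interval of the 96 h list. They made up 14.3% of the 7018 regions called at 96 h. Since presence in 1 list and absence from the others defined them, their strength is given as a description and their absence from the other lists is no finding.

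The peak lists came from ChIP-seq with an ESRRB antibody, which sequences the DNA fragments that the factor holds in fixed chromatin. The cells were E14, an established line of mouse embryonic stem cells. The conditions were cells in 2iL, cells 48 h after 2iL withdrawal and cells 96 h after it, with no genetic change named in any of them. The 2iL medium held 3 µM CHIR99021, which inhibits the kinase GSK3, 1 µM PD0325901, which inhibits the kinase MEK, and the cytokine LIF. Each condition had 1 antibody library with no replicate, and 1 input library that was not used here, so no test between conditions was possible and the 95% intervals below (exact Clopper-Pearson for shares) cover counting error only. A region missing from the 2iL and 48 h lists may still have been bound there at a level too low to be called.

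ESRRB is an orphan nuclear receptor of the estrogen-related family, which binds DNA as a monomer at a single extended site and recruits coactivators without a known natural hormone. In mouse embryonic stem cells it is part of the naive network with NANOG, KLF4 and TFCP2L1, and its gene is held active when GSK3 is inhibited, because the repressor TCF7L1 is then released. When 2iL is taken away, cells leave the naive state, pass through a formative state and become able to enter the germ layers.

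The sequences at hand were RefSeq promoters of the GRCm38.p6 build, from 250 bases before to 50 after a listed gene start, so only members that reach a promoter can be shown as DNA. Among the 1001 regions, 87 overlapped 108 such promoters. The 250 bases before the start are printed for 7 of these promoters, 5′ to 3′ on the gene's own strand. Capitals mark the ESRRB core site AAGGTCA or, on the opposite strand, TGACCTT. The first 6 hold that site before the start and show how differently it is placed, and Cldn4, an epithelial gene of the lists used below, is shown as a member promoter without it.
Slc6a11 (chr6:114130991-114131240, + strand): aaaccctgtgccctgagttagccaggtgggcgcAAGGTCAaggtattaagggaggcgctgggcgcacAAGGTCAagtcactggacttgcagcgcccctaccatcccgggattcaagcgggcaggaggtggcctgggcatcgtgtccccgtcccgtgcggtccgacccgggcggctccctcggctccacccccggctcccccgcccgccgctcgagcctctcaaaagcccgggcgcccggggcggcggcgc
Gm52705 (chr4:118260490-118260739, + strand): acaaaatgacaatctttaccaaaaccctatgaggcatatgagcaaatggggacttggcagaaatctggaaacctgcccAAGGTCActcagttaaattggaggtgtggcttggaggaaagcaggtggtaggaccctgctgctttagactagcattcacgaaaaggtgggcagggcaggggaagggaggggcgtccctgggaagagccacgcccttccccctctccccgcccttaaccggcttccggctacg
4930545H06Rik (chr10:68321143-68321392, - strand): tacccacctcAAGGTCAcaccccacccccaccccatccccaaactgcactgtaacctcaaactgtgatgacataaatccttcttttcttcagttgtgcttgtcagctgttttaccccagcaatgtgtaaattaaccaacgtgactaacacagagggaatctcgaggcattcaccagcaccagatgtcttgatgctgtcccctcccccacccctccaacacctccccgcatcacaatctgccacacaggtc
Zfp27 (chr7:29906105-29906354, - strand): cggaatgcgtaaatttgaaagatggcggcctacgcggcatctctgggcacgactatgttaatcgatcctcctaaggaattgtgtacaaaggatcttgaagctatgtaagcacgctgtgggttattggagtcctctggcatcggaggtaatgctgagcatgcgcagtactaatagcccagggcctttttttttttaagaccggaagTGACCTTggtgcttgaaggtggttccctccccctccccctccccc
Baz1b (chr5:135187073-135187322, + strand): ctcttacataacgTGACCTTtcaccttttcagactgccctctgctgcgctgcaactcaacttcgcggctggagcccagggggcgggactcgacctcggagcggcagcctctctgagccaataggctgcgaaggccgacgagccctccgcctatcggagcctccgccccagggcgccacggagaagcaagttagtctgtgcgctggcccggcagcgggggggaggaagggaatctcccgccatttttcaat
Rimkla (chr4:119492599-119492848, - strand): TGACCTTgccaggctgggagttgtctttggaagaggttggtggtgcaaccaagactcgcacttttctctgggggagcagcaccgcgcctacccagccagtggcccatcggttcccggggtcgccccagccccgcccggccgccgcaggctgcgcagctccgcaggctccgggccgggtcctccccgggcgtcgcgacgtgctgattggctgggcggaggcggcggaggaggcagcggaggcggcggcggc
Cldn4 (chr5:134946935-134947184, - strand): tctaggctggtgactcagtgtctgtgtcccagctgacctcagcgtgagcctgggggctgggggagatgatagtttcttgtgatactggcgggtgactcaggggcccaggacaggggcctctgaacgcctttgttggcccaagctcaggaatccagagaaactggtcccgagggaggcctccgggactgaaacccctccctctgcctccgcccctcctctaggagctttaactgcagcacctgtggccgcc
Slc6a11, which encodes a transporter of the neurotransmitter GABA, was the member promoter with more than 1 core site: 2 sites began 217 and 183 bases before the start, and the nearer one to the summit lay 65 bp from it. In the lncRNA gene 4930545H06Rik the core, which began 240 bases before the start, was part of the full 9-base site TCAAGGTCA, 52 bp from the summit. In the lncRNA gene Gm52705 it lay 63 bp from the summit, and in Rimkla, which encodes an enzyme that makes the neuropeptide N-acetylaspartylglutamate, 97 bp. In Zfp27, a zinc finger gene, the site shared 1 base with an ETS site (CCGGAAGT), as the printed run ccggaagTGACCTT shows. The other promoters with the core, whose sequences are not printed, were those of Riox2, with the site 216 bp from the summit, and Lrfn4, with the site 4 bp from the summit and 6 bases after the start.

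The core site was found in 8 of the 108 promoters that members overlapped (7.41%, 95% interval 3.25 to 14.1), in 90 of 788 promoters overlapped by other 96 h regions (11.4%, 9.28 to 13.9) and in 1550 of all 32817 promoters (4.72%, 4.50 to 4.96). The full site TCAAGGTCA, which contains the core, was in 1 of the 108, in 16 of the 788 (2.03%) and in 139 of all promoters (0.424%). Where the summit itself lay in the promoter, the core was in 6 of 34 member promoters (17.6%, 6.76 to 34.5) and in 63 of 197 promoters with the summit of another 96 h region (32.0%, 25.5 to 39). These intervals overlap and the difference was not tested, so no lower share in member promoters is claimed. For regions called only at 48 h the share with the summit inside was 14 of 37 (37.8%, 22.5 to 55.2), and for regions called only in 2iL 36 of 175 (20.6%, 14.8 to 27.3).

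Member promoters were rich in G and C. Their median GC content was 61.7% and their median number of CG pairs 21.5, next to 60.7% and 21 in promoters overlapped by other 96 h regions and 52.7% and 7 in all promoters. The ETS site CCGGAAGT was in 12 of the 108 (11.1%, 5.87 to 18.6), in 48 of the 788 (6.09%, 4.53 to 8.0) and in 3.89% of all promoters. The SP1 site GGGGCGGGG was in 26 (24.1%, 16.4 to 33.3), in 179 of the 788 (22.7%) and in 11.4% of all. The SOX site ATTGTT was in 3 (2.78%, 0.577 to 7.90), in 51 of the 788 (6.47%) and in 10.7% of all. All sites were searched on both strands, those named here were among 22 searched, and a match is a description of letters and not a bound site. Promoters that overlap each other share sequence, whether of 1 gene or of neighbouring genes. With the ETS site these included Aimp1 and Tbck, Bcs1l and Zfp142, and 1110065P20Rik and Yrdc. The intervals treat such promoters as separate.

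The regions called only at 96 h were weak. Their fold enrichment, the ratio that the authors deposited of reads at the summit to local background with 1 added to each, ran from 1.34 to 11.4 with a median of 3.78 (95% interval 3.7 to 3.8). The median was 5.11 (5.06 to 5.20) in the other 6017 regions of the 96 h list, whose highest fold was 60.9. It was 3.94 in the 500 regions of 96 h also called in 2iL but not at 48 h, 4.53 in the 1113 also called at 48 h but not in 2iL, and 5.62 in the 4404 also called in both. Members were thus nearest in strength to the 96 h regions shared with 2iL alone.

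The same holds for the numbers behind the folds. The fold and p-value of a summit together give its reads, and the median was 32 reads over a background of 7.29 in members and 49 reads over 7.95 in the other 96 h regions. The median width was 697 bp in members and 914 bp in the others, and more than 1 summit was listed in 23.0% of members (20.4 to 25.7) and 32.8% of the others (31.7 to 34.0). A q-value of 1e-05 or less was reached by 779 members (77.8%) and by 5740 of the others (95.4%). A q-value above 0.05 was listed for 49 of the 1001 members and 53 of the 6017 others. The score that the authors capped at 1000 reached the cap in 8.59% of members and 50.01% of the others.

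**Figure D1:**
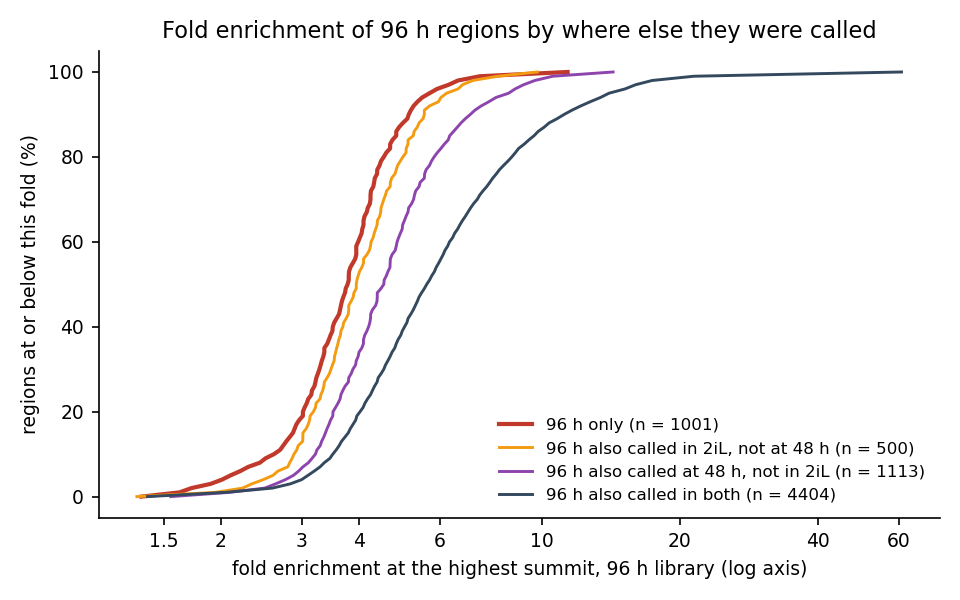
Share of 96 h regions (y axis, %) with a fold enrichment at or below the value on the x axis (log axis), by the other lists in which the region was called. At the median, the curve of the 1001 regions called only at 96 h lies farthest to the left, at 3.78. That of the 4404 regions called in both other lists lies farthest to the right there, at 5.62.

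When all 96 h regions were split by fold into 5 equal groups, regions called only at 96 h made up 31.0% of the weakest group (95% interval 28.6 to 33.5) and 0.927% of the strongest (0.494 to 1.58). In between the shares were 23.6%, 11.7% and 4.06%. Each library's folds refer to its own background. A fold of 3.47 lay above the lowest 5% of 2iL regions, and 381 members were below it. For the 48 h list that value was 2.91, with 168 members below it. At the other end, 140 members had a fold above 4.82, the median of the whole 96 h list, and 13 were in its strongest group.

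The rule's edge shows how near some members came to being shared. Among the members, 12 lay within 100 bp of a region of another library without touching it, and their folds were 1.34 to 4.69 with a median of 2.14. Just outside, 12 regions of 96 h overlapped a region of another library by 100 bp or less, with folds of 1.45 to 3.79 and a median of 1.92. Folds under 2 were found in 40 members, with a median width of 259 bp, and 28 of the 40 had another 96 h region within 1 kb.

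The 20 members of highest fold lay near genes of varied function, and 8 of them were inside a protein-coding gene, 5 within 1 kb of a gene end and 5 more than 50 kb from any such gene. The strongest lay 588 bp past the far end of Nuak1, which encodes a kinase related to AMPK (chr10:84367791-84370912). It had a fold of 11.4, with 77 reads over a background of 5.84, and was one of the widest members at 3122 bp with 5 summits. Its nearest region in another library was 47.0 kb away. The next lay 254 kb from Gap43, a gene of growing axons (chr16:42594708-42595531), with 80 reads and a fold of 10.2. The region that follows had Gata3, a transcription factor of trophoblast and T cells, as its nearest protein-coding gene, 613 kb away (chr2:9243722-9244846), with 69 reads and a fold of 9.18. It was also 198 kb from any region of another library.

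Members inside genes came next. A region in Slc36a3, of a family of amino acid transporters (chr11:55137388-55138835), had a fold of 8.27, and 1 in the phosphatase gene Ppm1h (chr10:122870104-122871157) had 8.04. Folds of 6.58 to 7.6 were found inside Cacna1d, a calcium channel gene, inside Shroom3, whose product narrows the apical side of epithelial cells, and inside Tenm3, Ahnak2, Atrn and Dis3l2. Dis3l2 encodes an exonuclease that degrades uridylated RNA. Outside protein-coding genes, the members nearest Sptlc2, which encodes a subunit of the first enzyme of sphingolipid synthesis, and Olfr195, an olfactory receptor gene, had folds of 7.74 and 7.6. Those nearest 1700009N14Rik, Ppm1b and Mat2b lay 931, 77.7 and 520 kb from the gene, with folds of 7.81, 6.85 and 6.57. The summits nearest Sptlc2 and Mat2b lay inside the lncRNA genes Gm33444 and Gm12132. Among the members named here, a region of another library lay within 5 kb of those nearest Ppm1b (1854 bp), Sdc4 (2267 bp) and Atrn (2579 bp), and over 100 kb from those nearest Gata3, 1700009N14Rik, Olfr195, Dis3l2 and Mat2b.

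Reads and fold did not rank members alike. The members with the most reads, chosen here after their values were seen, were inside Lars2 (296 reads), Cdk8 (291) and Zc3h7a (266), at folds of 2.07, 1.71 and 2.35. Their backgrounds were 142, 170 and 113 reads. A background above 50 reads was found in 6 members and in 17 of the other 6017 regions.

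The places of members relative to genes differed from those of the other 96 h regions by less than the counting intervals. Their summits lay within 1 kb of an end of a protein-coding gene in 134 regions (13.4%, 95% interval 11.3 to 15.7), against 13.1% (12.2 to 14.0) of the other 96 h regions. Another 395 (39.5%, 36.4 to 42.6) were elsewhere inside a gene, against 39.2% (38.0 to 40.5), and 175 (17.5%, 15.2 to 19.98) were over 50 kb from any protein-coding gene, against 16.5% (15.6 to 17.5). The gene-end share was 7.51% (6.58 to 8.54) in the 2888 regions called only at 48 h and 9.32% (8.61 to 10.1) in the 6277 called only in 2iL. Both of those intervals lie below that of the members.

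**Figure D2:**
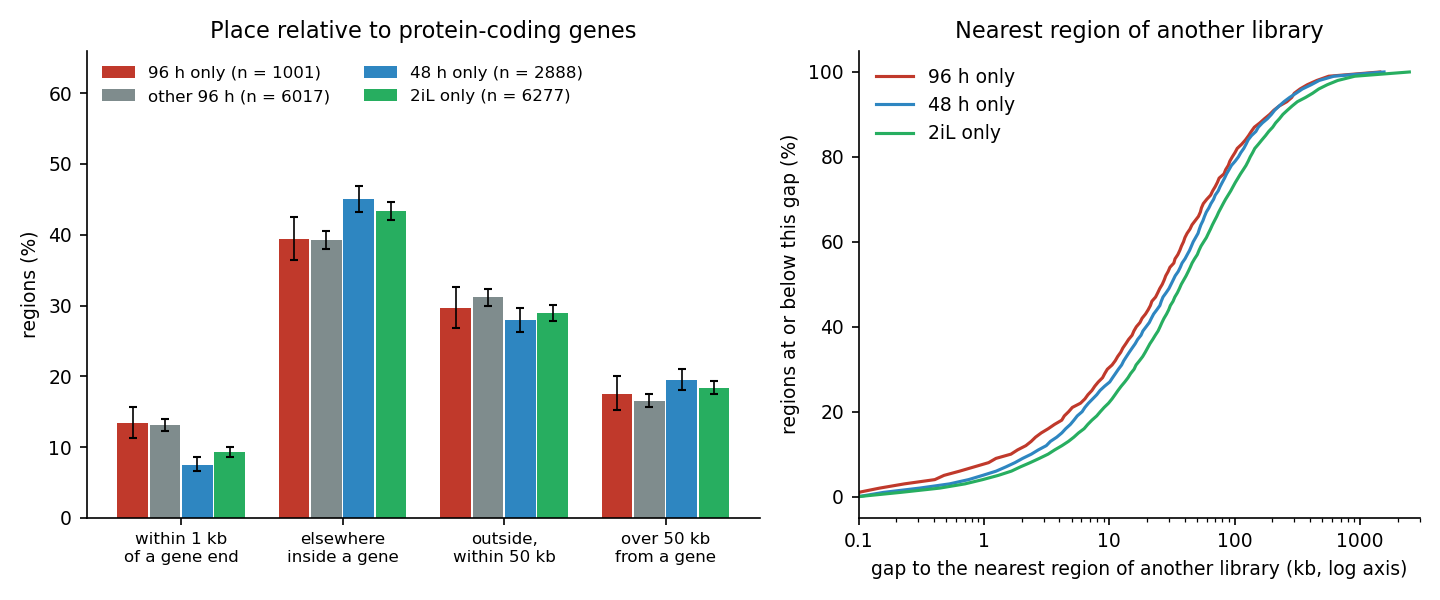
Left, share of regions (%) in 4 places relative to protein-coding genes for regions called only at 96 h, other 96 h regions, and regions called only at 48 h or only in 2iL, with exact 95% intervals as error bars. Right, share of regions (%) whose gap to the nearest region of another library is at or below the value on the x axis (kb, log axis, gaps under 0.1 kb drawn at 0.1), for the 3 sets called in 1 library. The gene-end bars of both 96 h sets, at 13.4% and 13.1%, are the tallest in their place.

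The gene-end share changed with strength within the members. In the weakest of the 5 groups by fold, 92 of 435 members (21.1%, 17.4 to 25.3) were at a gene end, and so were 23.5% (20.9 to 26.3) of the other 96 h regions of that group. In the next group the shares were 8.13% of 332 members (5.43 to 11.6) and 15.1% of the others (13.0 to 17.4), and in the middle group 4.88% of 164 members (2.13 to 9.39) and 11.9% of the others (10.2 to 13.9). Within those 2 groups the intervals do not overlap, and no test was made. In group 4 the shares were 5.26% of 57 members (1.10 to 14.6) and 10.5% of the others (8.95 to 12.3), and these intervals overlap. In the strongest group 4 of 13 members were at a gene end (30.8%, 9.09 to 61.4), against 7.70% of the others (6.35 to 9.23).

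**Figure D3:**
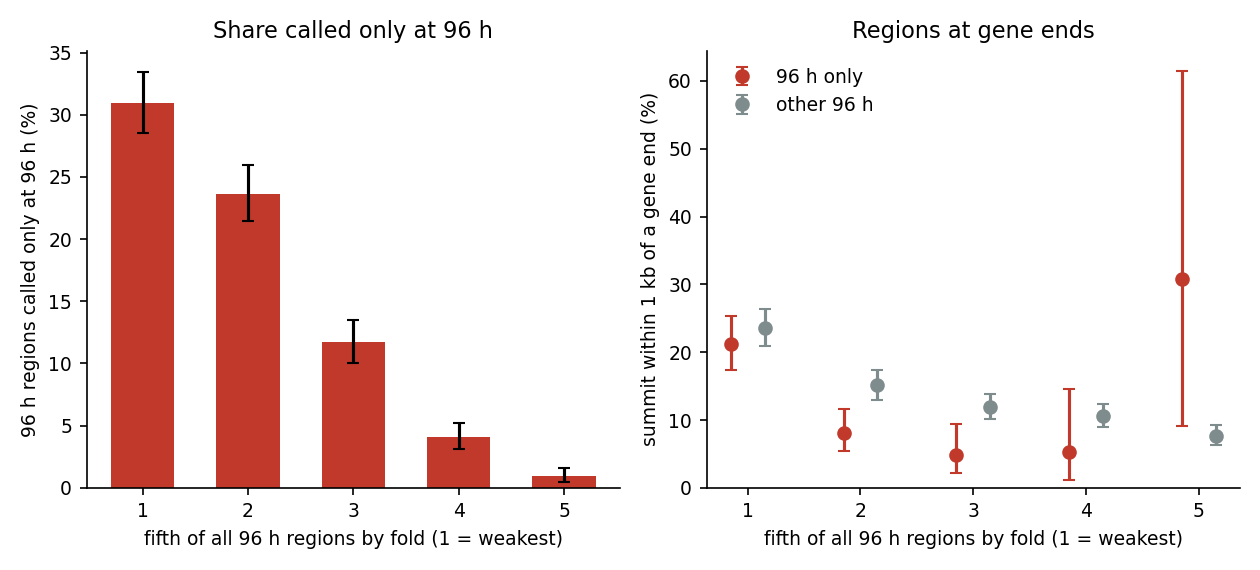
Left, share of 96 h regions called only at 96 h (%) in 5 equal groups of all 96 h regions by fold, 1 being the weakest. Right, share with the summit within 1 kb of a gene end (%) in members and in other 96 h regions of the same groups. Error bars are exact 95% intervals, and the share called only at 96 h falls along the groups, with 31.0% in the weakest and 0.927% in the strongest.

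Where the strand of the gene was listed, 81 of 110 members at a gene end were at its start (73.6%, 64.4 to 81.6) and 29 at its far end, against 525 of 629 other 96 h regions at the start (83.5%, 80.3 to 86.3). Among the 15 gene-end members of highest fold, 8 were at the far end, 4 at the start and 3 at genes without a listed strand. The far-end members lay past Nuak1 (fold 11.4), Irs2 (7.33), Sf3b6 (6.43), S100a11 (4.68) and Flnc (4.38), and just inside Sdc4 (7.02), Spef1l (4.89) and Galnt5 (4.68). Irs2 encodes an adaptor of the insulin receptor, and its region was the widest member at 3354 bp (chr8:10981234-10984587). Sdc4 encodes a heparan sulfate proteoglycan of the cell surface, Sf3b6 a splicing factor subunit and Flnc a filamin of muscle.

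The 4 at a start were those of Ccdc180 (fold 7.34), Zfp30, a zinc finger gene (5.10), Tuba1a, an alpha-tubulin gene of neurons (4.58), and Gm1070 (4.53). A member at the retrotransposon-derived gene Rtl1 (chr12:109564982-109567445) had 6 summits and a fold of 6.03, and its summit lay inside both Rtl1 and the maternally expressed lncRNA gene Meg3, so the region cannot be given to 1 of them.

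By overlap with a listed promoter, the members of highest fold were those at 2810429I04Rik (5.91), Lrrc9 (5.66), Tuba1a (4.58), Gm1070 (4.53), Gm36237 (4.39), Taf7l2 (4.24), Gm52705 (4.24), Zfp93 (4.16), Sh3rf3 (4.03) and Btbd8 (4.02). Only those at Gm52705 and Zfp93 had the summit inside the promoter. The highest fold at a promoter was therefore lower than that of the 20 strongest members, of which the last had 6.57. Hoxa5, a homeobox gene of the trunk that was chosen after its values were seen, had the summit at the base of its listed start, with 58 reads over a background of 14.6 (fold 3.79).

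Members lay among regions of the other libraries. Their median gap to the nearest region of another library was 26467 bp, against 31100 bp for regions called only at 48 h and 37525 bp for those called only in 2iL. Within 10 kb of a region of another library were 305 members (30.5%, 27.6 to 33.4), against 26.9% (25.3 to 28.6) and 22.2% (21.2 to 23.3). The lists searched differ in length between these sets. Against the 2iL list alone, 24.2% of members (21.6 to 26.95) were within 10 kb. Of regions called only at 48 h, 23.1% were (21.5 to 24.6). The median gaps were 35196 and 37204 bp. Against the 48 h list alone, 22.2% of members (19.6 to 24.9) were within 10 kb. Of regions called only in 2iL, 19.9% were (18.96 to 20.96). The median gaps there were 44959 and 43194 bp. In each pair the intervals overlap, so no greater closeness of members is claimed. At 100 kb, 192 members still had no region of another library. Of the 305, 98 (32.1%, 26.9 to 37.7) were nearest to a region called in all 3 libraries, a class that made up 24.2% of all merged regions other than members. Another 85 (27.9%, 22.9 to 33.3) were nearest to a region called only in 2iL, a class that made up 35.6%. The median fold was 3.58 in members within 10 kb of another library's region and 3.82 in those farther away.

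Few members lay close to each other: 65 were within 10 kb of another. At 7 genes 3 or more members had it as their nearest protein-coding gene within 50 kb, an observation made after the values were seen. Etl4, a gene of notochord development, held 6, with folds of 1.90 to 4.25. Sipa1l3 held 4, Cbfa2t3, which encodes a corepressor of blood cells, 3 and the RNA-binding protein gene Rbpms 3. Foxp4, a forkhead factor gene, Slc1a3, which encodes a glutamate transporter of glia, and Grhl2 had 3 each, and the highest folds were 5.16 at Foxp4 and 5.11 at Slc1a3. Neighbouring intervals can be parts of 1 bound stretch: at Sipa1l3 the members 29489004 to 29489519 and 29489577 to 29490166 of chromosome 7 had folds of 1.92 and 4.14.

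By chromosome, the share of 96 h regions called only at 96 h ran from 8.47% on X (10 of 118, 4.14 to 15.03) to 19.0% on chromosome 12 (48 of 252, 14.4 to 24.4), leaving out Y with 1 of 3. The intervals of chromosome 11 (9.68%, 7.22 to 12.6) and chromosome 6 (10.3%, 7.48 to 13.7) lay below the 14.3% of the whole list and that of chromosome 12 above it, among 21 chromosomes looked at.

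Genes of pluripotency and early development were looked up by lists, and a gene was counted when a member's summit lay within 50 kb of it. Of all 21887 protein-coding genes 7.87% had a member that near, and of the 204 listed genes 34 (16.7%) did. The listed genes were also nearer to 96 h regions in general: 125 (61.3%) had any 96 h region within 50 kb, against 39.6% of all protein-coding genes. These counts carry no test, and a member was not shown to act on the gene it lay near.

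Formative genes, the marks of the state that follows naive pluripotency, had the highest share, 7 of 24 (29.2%), and 18 of the 24 had any 96 h region. Regions called only at 48 h lay near 10 of the 24 and those called only in 2iL near 8, where all genes gave 19.3% and 35.8%. Grhl2, an epithelial grainyhead factor of formative enhancers, had 3 members, 1 inside the gene (chr15:37262462-37262820, 28 reads, fold 4.15) and the others 5.88 kb (41 reads, fold 4.09) and 34.7 kb from it (32 reads, fold 3.53). Its regions numbered 2 in 2iL, 2 at 48 h and 5 at 96 h. Dnmt3l, which encodes the cofactor of the de novo methyltransferases, had a member inside the gene (chr10:78047581-78048683, 31 reads over 6.64, fold 4.19). Dnmt3b, which encodes one of those enzymes, had 1 at 8.90 kb (chr2:153639597-153641138, 29 reads over 8.04, fold 3.32).

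Sfrp2, a secreted WNT inhibitor, had a member 60 bp from the gene (chr3:83774112-83774667), the only region of any library within 50 kb of it, at 20 reads over 6.29 and a fold of 2.88. Tead2, a factor of the Hippo pathway, had 2 members with folds of 3.59 and 1.70, of which the weaker lay 25 bp from a region of another library. Pou3f1, the POU factor OCT6, had 1 at 43.2 kb (fold 3.21), where 1 region was called in 2iL and 3 at 48 h. Tcf7l1, the repressor that GSK3 inhibition releases, had 1 at 39.1 kb (fold 2.88). The formative members had folds of 1.70 to 4.19, and most lay below 3.78, the median of all members.

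Of the naive genes, 4 of 20 had a member within 50 kb and none within 10 kb, where all protein-coding genes gave 3.48%. Such a short list cannot set none apart from that share. Prdm14, which encodes a repressor of DNA methylation and of FGF signalling in naive cells, had a member at 12.5 kb (chr1:13100518-13101341) with 43 reads over a background of 5.84 and a fold of 6.43, close to the highest fold of any 96 h region near it (6.52). The same region lay 38.1 kb from the coactivator gene Ncoa2, and a region of another library was 1796 bp away. Nr5a2, a nuclear receptor that shares much of ESRRB's site, had a member at 48.4 kb (fold 5.36), Zfp42, which encodes REX1, at 24.9 kb (4.46) and the growth factor gene Fgf4 at 27.04 kb (4.31). The members at Zfp42 and Fgf4 lay 756 and 719 bp from a region of another library. Naive genes differed most from the other sets in regions called only in 2iL, which were near 16 of the 20, while those called only at 48 h were near 4.

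Among the core genes, Utf1, a chromatin factor of pluripotent cells, had a member at 27.9 kb (46 reads, fold 4.89), the one at Spef1l named above. The repressor gene Zfp281 had 1 at 29.2 kb (4.13) and Lin28a, which encodes an inhibitor of let-7 processing, 1 at 46.8 kb (4.45). At Lin28a it was the only region called at 96 h, with 1 region in 2iL and none at 48 h.

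Of the lineage lists, the neural one had the lowest share at 15%, close to the 15.4% of the trophoblast list. In it 3 of 20 had one: Tubb3, a tubulin gene of neurons, at 25.9 kb (fold 4.72), Msi1 at 34.8 kb (2.55) and Sox1, a factor of the neural plate, at 46.9 kb (2.38). At Tubb3 and Sox1 the member was the only 96 h region within 50 kb, and at Sox1 it lay 143 bp from a region of another library. In the mesoderm and endoderm list 4 of 17 had one, and only 5 of the 17 had any 96 h region. Mesp1, a factor of early mesoderm, had a member at 26.3 kb (chr7:79819695-79820347, 34 reads over 7.10, fold 4.32) and no region in 2iL or at 48 h. Hand2, a factor of heart and limb, had 1 at 30.6 kb (fold 4.18), with 1 region in 2iL and none at 48 h. The mesoderm factor T had 1 at 45.9 kb (3.11), and Eomes, of mesoderm, endoderm and trophoblast, had 1 inside the gene (2.46). The member in Eomes also overlapped promoters of the lncRNA gene Gm33408. In the trophoblast list Eomes and Fgfr2, the FGF receptor of trophoblast stem cells, were the 2 of 13 with a member. The 2 members inside Fgfr2 had folds of 3.94 and 2.23, and the second lay 23 bp from a region of another library.

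Epithelial, adhesion and matrix genes had members at 5 of 18 (27.8%). Lamb1, which encodes a laminin chain of the basement membrane, had 3 members and no other 96 h region within 50 kb. They lay at 45.8 kb (44 reads, fold 6.57), 25.01 kb (36 reads, fold 4.46) and 25.8 kb (34 reads, fold 3.62). The first was nearer to Dld, which encodes a subunit of the pyruvate dehydrogenase complex, at 23996 bp, and the other 2 intervals lay within 1 kb of each other. The fold of 6.57 equals that of the last of the 20 strongest. Lamb1 had 4 regions in 2iL and none at 48 h within that distance. Itga6, a laminin receptor subunit, had 1 inside the gene (chr2:71794932-71795799, 38 reads, fold 5.65) and 1 at 45.7 kb (29 reads, fold 4.31). At Cldn4, a claudin of tight junctions, the summit lay 156 bp from the start, in the promoter printed above, with 77 reads over a high background of 19.9 (fold 3.74). A region called in another library was 434 bp away. Cdh3 had a member at 10.4 kb (4.33) and Col4a2 at 26.2 kb (2.37).

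**Figure D4:**
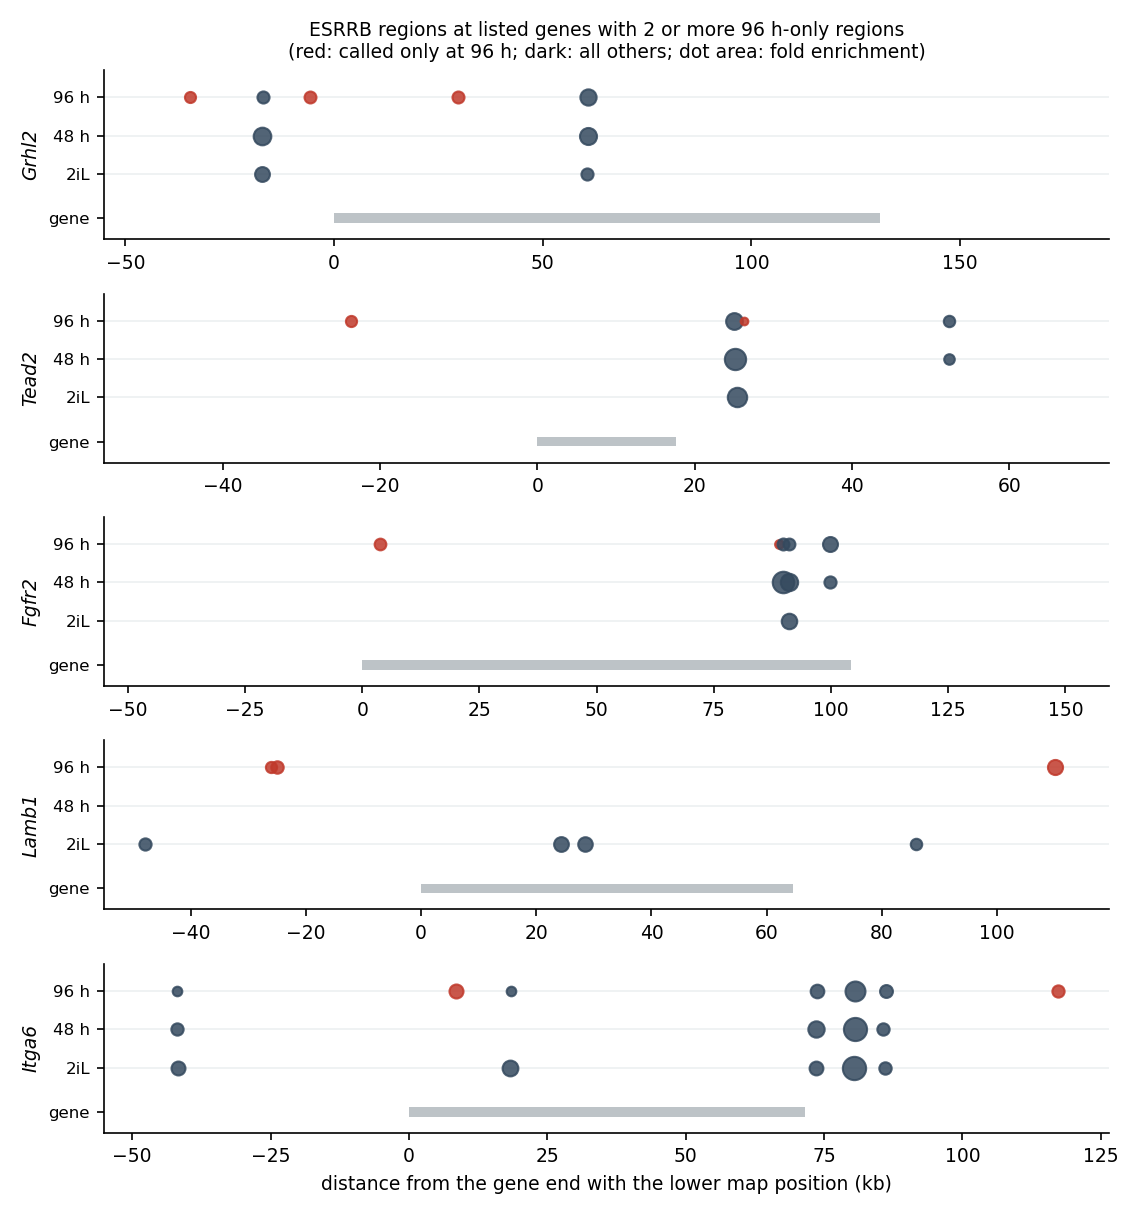
Regions of each library (rows) within 50 kb of the 5 listed genes that had 2 or more members, by distance in kb from the gene end with the lower map position. Dot area is proportional to fold, red marks regions called only at 96 h and the grey bar is the gene. At Lamb1 all 3 regions of 96 h are red and the 48 h row is empty, and at Grhl2 3 of the 5 regions of 96 h are red.

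Nuclear receptors and their coregulators had members at 4 of 24. Ncoa3, the coactivator that ESRRB uses in embryonic stem cells, had 1 at 16.2 kb (28 reads, fold 4.24), where the strongest 96 h region had a fold of 30.1. Rxrg had 1 at 36.7 kb (4.24), Ncoa2 the one named with Prdm14, and Nr6a1 a weak one inside the gene (1.71). Of the 2iL signalling targets, 3 of 18 had one: Fos at 1.38 kb (58 reads over 16.6, fold 3.36), Pim3 at 7.97 kb (2.90) and Pim1 at 26.7 kb (2.76). The member at Pim1, with 42 reads over 14.6, lay 152 bp from a region of another library. Those at Fos and Pim3 lay 2001 and 6352 bp from one. The summit of the member at Pim3 lay inside the promoter of another protein-coding gene, Gm33049. The member at Pim1 overlapped the promoter of the lncRNA gene Gm36199. In the list of DNA methylation genes the 2 of 10 were Dnmt3b and Dnmt3l, which are also formative genes.

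The listed energy metabolism genes, of a class that estrogen-related receptors are known to bind, had no member within 50 kb (0 of 19). By a rule of 3 genes over the list size, an approximation and not the exact interval, that allows a share of up to 15.8%. Of the 19 genes, 17 had another 96 h region within 50 kb. Regions called only at 48 h lay near 6 of the 19 and those called only in 2iL near 11. Genes of other tissues, the control list, also had 0 of 16, which allows up to 18.8% by the same rule. Of these 16 genes, 4 had any 96 h region. With 7.87% of all genes near a member, a count of 0 in lists of this size is not distinguishable from that share. The energy genes had 96 h regions nearby more often than all genes did, 17 of 19 against 39.6%. Of the 204 listed genes 16.7% had a member, so 7.87% may be a low measure for the energy list. Energy genes outside the list did have members, chosen after their values were seen: Ndufa10, of complex I, had 1 at 1761 bp (fold 4.33), and the one nearest Dld is given above.

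**Figure D5:**
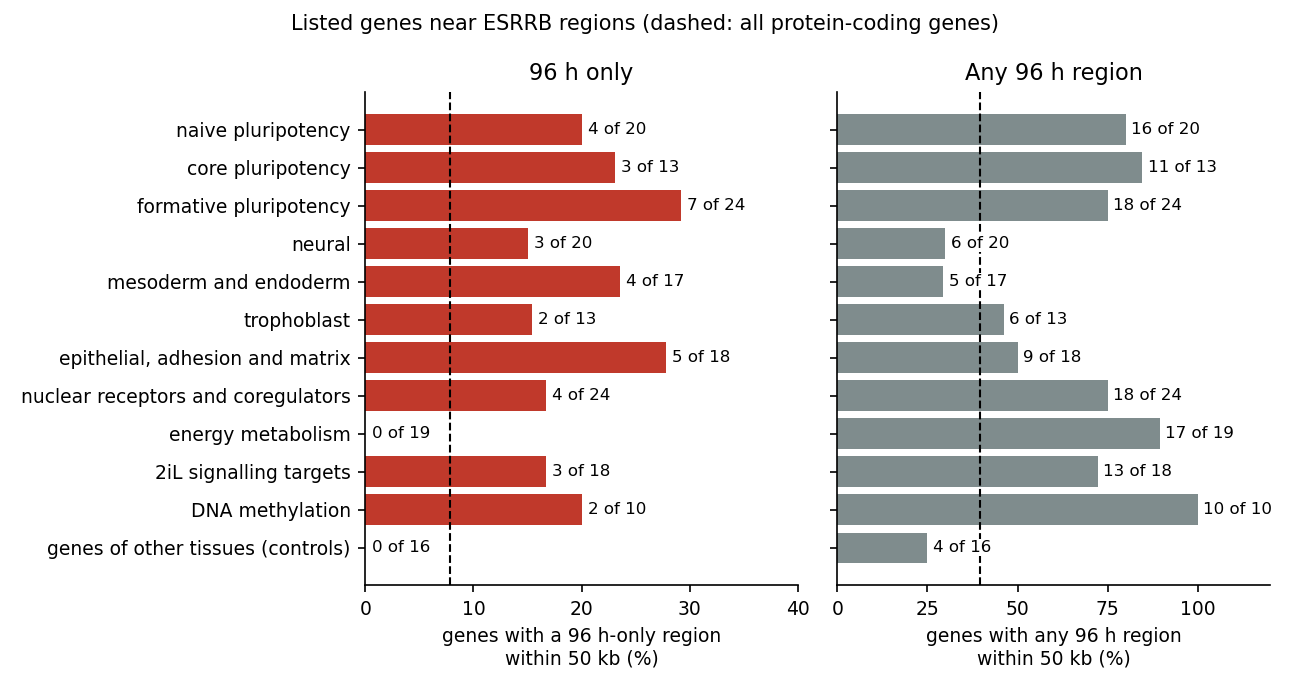
Share of the genes of each list (%) with a region called only at 96 h (left) or any 96 h region (right) within 50 kb, with counts beside the bars. Dashed lines are the shares over all protein-coding genes, 7.87% and 39.6%. Formative genes have the longest bar on the left, 7 of 24, and energy metabolism genes have 0 of 19 on the left and 17 of 19 on the right.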

How the data were processed

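The data were 3 peak lists, 1 for each antibody library, and the 3 input libraries were not used here. Per the submitters' processing notes, bcl2fastq 2.20.0.422, BWA, SAMtools, Picard and MACS2 were used with mm10. Per the labels' protocols, fixation used 1% formaldehyde, and each library was made from 10 ng of DNA. Mapping filters, the calling threshold and the use of the inputs are not stated in those notes or labels. Peak lists hold no expression, so the cells' identity was not checked against markers.

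The authors deposited for each summit a score capped at 1000, a fold enrichment (a ratio to local background), a p-value and a q-value as −log10, and a summit offset in bp. A region was a unique interval, described by its summit of highest fold. There were 13767 regions for 2iL, 10970 for 48 h and 7018 for 96 h. The lists used here carry no total reads. Solving fold and p together gave whole reads at 100% of regions within 0.05, and a lowest background, a floor set by depth, of 5.04, 8.09 and 5.84 reads.

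Regions were merged with bedtools 2.31.1. Genes and promoters came from RefSeq tables of GRCm38.p6, whose coordinates are those of mm10. Gene ends stood in for start sites, and strand came from the promoter table. Motifs were searched in promoters alone. The code was tested on simulated intervals and counts.

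The members and the 12 gene lists, whose 204 genes all matched, were chosen with earlier results of these data known. Named by rule were the 20 members of highest fold, up to 15 at gene ends and 10 at promoters by fold, and up to 12 genes of each list with a member within 50 kb. A few regions within this rule are not reported here. Alternatives tried were a q limit of 1e-05, overlap of 50% of both, merging within 1 kb, lists of equal length, all gene types and other windows.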

Additional observations from a re-analysis of the deposited data

How the results depend on the processing

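No paired analysis was possible because each condition had 1 library. The 1001 merged regions became 1544 (1589 intervals of the 96 h list) when overlap had to cover at least 50% of both regions. They became 2077 when the lists were cut to equal length, 7018 regions by fold, which left the 96 h list whole. All 1001 intervals were kept in both settings by design, since a stricter overlap or shorter 2iL and 48 h lists cannot remove a member. The share of 96 h intervals called only there was 14.3%, and it was 11.98% with a q of 1e-05 or less in all lists, 11.9% with that limit in the 96 h list alone, 22.6% with the 50% overlap, 13.1% with regions within 1 kb merged and 29.6% with lists of equal length. The median fold was 4.02 with the q limit. The gene-end share was 20.5% when all gene types counted. The core site AAGGTCA in place of the full site gave 7.41% of promoters. Within 5 kb of a region of another library were 20.9% of members, and within 50 kb 65.4%. Listed genes with a member numbered 12 at 10 kb (5.88%, against 3.48% of all protein-coding genes). These 13 of 22 alternative values were counted as moved. The other 9 stayed within the limits set for a move, but not all were unchanged. Among them, the regions numbered 781 with the q limit in all lists and 779 with it in the 96 h list alone, against 1001. They numbered 899 with merging within 1 kb. Listed genes with a member numbered 39 at 100 kb, against 34 at 50 kb. Those 39 were 19.1% of the listed genes, against 13.0% of all protein-coding genes at 100 kb. Summit windows of 50 and 250 bp for the ESRRB site were not run, since sequences outside promoters were not used here. The lowest background was 5.04 reads in 2iL, 8.09 for 48 h and 5.84 for 96 h, and the part of depth in which regions were called was not tested.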

Other observations

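Of 1005 listed miRNA hairpins, 12 lay within 5 kb of a member, a count made after the values were seen. No count for other regions stands beside it, so it cannot be read as high or low. The hairpins of Mir96 and Mir183, which are made together in sensory cells, lay 1.86 and 1.68 kb from a member with a fold of 4.33. Mir22 lay 1.10 kb from one with a fold of 4.19 and Mir130a 2.68 kb from one with a fold of 2.21. The member at Rtl1 lay 1.197 kb from Mir770 and 4.54 kb from Mir673. Mir7668 lay inside a member with a fold of 3.11, the one that overlaps the Zfp27 promoter.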
